A study of Mus musculus with 4 samples.

Results

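The cells described here were tumour-infiltrating CD8 T cells whose transcriptomes held both Pdcd1, the gene of the inhibitory receptor PD-1, and Havcr2, the gene of the inhibitory receptor TIM-3. A cell of the tumour was taken into this gate when it had a value above 0 for Cd8a or Cd8b1, for Pdcd1 and for Havcr2, and for fewer than 2 of the cell cycle genes Mki67, Top2a and Birc5. The gate held 362 cells, 90 in the CD137 minus and 272 in the CD137 plus library, of 3998 tumour CD8 cells, out of 6965 cells in the series. The cells were thus selected on the measured values of these genes, so nothing about those genes, and no difference between gate cells and other cells, is a test. All levels given for the gate against other cells are a description.

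The mice were C57BL/6 recipients that were lethally irradiated and reconstituted with bone marrow of 2 donors, Cd4cre Cd137fl/fl ROSA26tomato and Cd137fl/fl ROSA26tomato, which makes a mixed chimera with cells of both donors in each mouse. Cre under the Cd4 promoter acts in developing T cells, CD8 T cells included, and removes the loxP-flanked part of Cd137, also called 4-1BB and Tnfrsf9, which costimulates T cells once they are activated. The other donor carries the same loxP-flanked gene and reporter allele without Cre. All mice received B16K1 cells, a line of mouse melanoma, under the skin, and on day 21 their spleen and tumour CD8 T cells were isolated on beads and sorted by the tomato reporter. Hashtagged cells of 7 mice went into 1 pooled library for the CD137 minus and 1 for the CD137 plus fraction of each tissue. The labels contradict each other on which fraction was tomato positive, so groups follow the CD137 status in the sample titles. The donors differ in Cre as well as in CD137, and the 2 cannot be told apart. Because each group is 1 library and the table names no mouse per cell, no difference here has a replicate error or a p-value, and intervals on shares are exact Clopper-Pearson 95% intervals that cover counting error only.

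PD-1 is induced by antigen receptor signalling and, when bound by its ligands, dampens that signalling. TIM-3 appears later, on T cells that have met antigen for a long time. In chronic infection and in tumours the cells that carry both receptors are known as terminally exhausted: they keep cytotoxic granules and chemokines, carry more inhibitory receptors such as LAG-3 and the ectonucleotidase CD39 (Entpd1), and have lost TCF-1 (Tcf7) and the other factors of progenitor cells.

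To show the regulatory sequence of the genes that define and lead the gate, the 250 bases before the annotated start are given for Pdcd1 (chr1:94052554-94052803, minus strand), Havcr2 (chr11:46454681-46454930, plus strand) and Ccl3 (chr11:83649379-83649628, minus strand), the chemokine gene that stood highest in the gate by the rule given below. They come from RefSeq on GRCm38.p6, 5′ to 3′ on the gene's strand, and capitals mark letters that match a motif on either strand.
Pdcd1: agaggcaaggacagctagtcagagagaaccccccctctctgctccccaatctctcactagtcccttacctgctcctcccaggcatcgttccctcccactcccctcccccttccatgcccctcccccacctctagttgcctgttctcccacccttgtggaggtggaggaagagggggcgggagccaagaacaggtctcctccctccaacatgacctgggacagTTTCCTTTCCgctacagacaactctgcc
Havcr2: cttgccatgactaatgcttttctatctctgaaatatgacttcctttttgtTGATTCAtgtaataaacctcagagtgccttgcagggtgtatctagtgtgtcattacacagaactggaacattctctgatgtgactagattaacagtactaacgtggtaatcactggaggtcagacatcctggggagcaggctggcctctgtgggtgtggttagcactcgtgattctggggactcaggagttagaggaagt
Ccl3: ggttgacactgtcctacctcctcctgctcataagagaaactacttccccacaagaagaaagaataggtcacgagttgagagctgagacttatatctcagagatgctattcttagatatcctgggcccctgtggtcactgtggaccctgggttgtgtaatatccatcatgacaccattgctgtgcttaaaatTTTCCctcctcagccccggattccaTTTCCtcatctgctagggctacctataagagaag
The motifs searched were those of AP-1 (TGANTCA), NFAT (GGAAA) and NR4A (AAAGGTCA), families of factors induced by antigen receptor signalling. None of these letters overlapped another motif's match in the 3 windows. The Pdcd1 window held 2 NFAT matches and no AP-1 match, the Havcr2 window 1 AP-1 match and no NFAT match, and the Ccl3 window 2 NFAT matches. Of 32851 windows of this length in the RefSeq table, 6.75% held the AP-1 letters, 55.6% the NFAT letters and 1.34% the NR4A letters, so windows with the NFAT letters are common. A match is a description of the letters only.

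The gate made up 7.19% of CD8 cells in the CD137 minus tumour library (90 of 1251 cells, 5.82 to 8.77) and 9.90% in the CD137 plus library (272 of 2747 cells, 8.81 to 11.1). The minus share was lower, and the counting intervals only just failed to overlap, ending at 8.77 and starting at 8.81. The libraries were further apart at the Pdcd1 step than at the Havcr2 step. Among non-cycling CD8 cells, Pdcd1 had a value in 39.9% of the minus cells (37.1 to 42.7) and 55.0% of the plus cells (53.1 to 56.9). Once a cell had a Pdcd1 value, Havcr2 was found at nearly the same rate, in 18.7% of minus cells (90 of 482, 15.3 to 22.4) and 18.5% of plus cells (272 of 1467, 16.6 to 20.6). Of cells without Pdcd1, 2.89% of minus cells (1.80 to 4.39) and 5.58% of plus cells (4.35 to 7.03) had Havcr2. Conversely, 81.1% of minus and 80.2% of plus cells with Havcr2 also had Pdcd1. After each cell was thinned at random to the smallest total among tumour CD8 cells, 2949 corrected counts, the gate held 4.93% of minus and 8.06% of plus CD8 cells, and Havcr2 was found in 14.2% of minus and 15.7% of plus cells with Pdcd1. In spleen the same rule found 0 of 2444 minus CD8 cells, which allows a share of up to 0.123% when the limit is set at 3 cells of the total (the exact interval ends at 0.151%), and 2 of 469 plus CD8 cells.

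**Figure D1:**
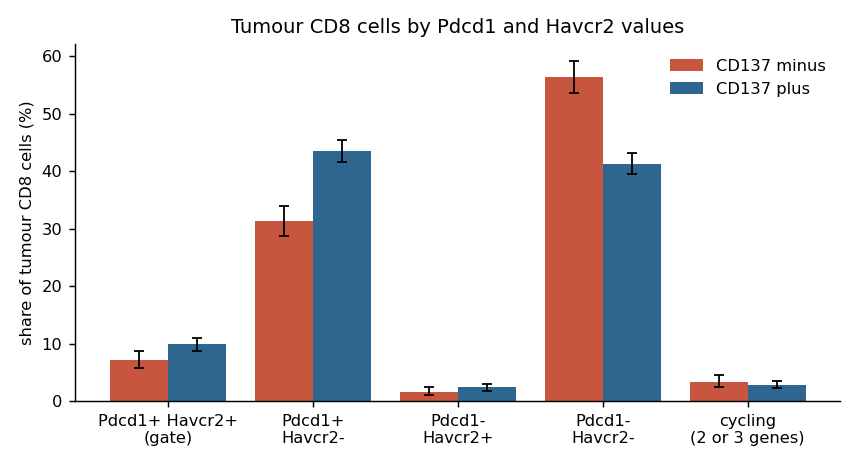
Share of tumour CD8 cells (y axis, percent) in 5 exclusive classes by Pdcd1 and Havcr2 value (x axis), for the CD137 minus and plus libraries; bars are shares and error bars exact 95% intervals for counting error. The gate held 7.19% of minus and 9.90% of plus cells, and the class with neither gene 56.4% and 41.3%.

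Most gate cells sat at the edge of the rule. Havcr2 was a single corrected count in 56 of the 90 minus cells (62.2%) and 199 of the 272 plus cells (73.2%). Pdcd1 had a median of 5 corrected counts in the minus and 3 in the plus cells. Minus gate cells also had larger totals, with a median of 5255 against 4063.5 corrected counts, and scaled to totals Pdcd1 stood at 1032 and 1002 CPM. At least 2 corrected counts of both genes were present in 31 minus and 55 plus gate cells. With that stricter gate the shares were 2.48% of minus (1.69 to 3.50) and 2.00% of plus CD8 cells (1.51 to 2.60), so the order of the libraries turned. These counts were not thinned, and the part of the larger minus totals in that order was not tested. Just outside the rule stood 6 minus and 15 plus cells that had both receptors and at least 2 of the 3 cell cycle genes, and 16 minus and 52 plus gate cells had 1 of these. Among cells with a Pdcd1 value, Havcr2 was found in 5.47% of minus and 11.3% of plus cells with 1 corrected count of Pdcd1. The share was 14.5% and 17.6% at 2 counts, 34.0% and 23.0% at 3, and 23.7% and 21.5% at 4 or more.

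Gate cells had more genes detected than other CD8 cells, with a median of 1998 against 1411 in the minus and 1739.5 against 1270 in the plus library, and still 1361 against 1041 and 1394.5 against 1105 after thinning. Their part in the differences below was not tested. Ribosomal protein genes took a median 23.9% of corrected counts in minus gate cells and 34.9% in other cells, and 23.3% and 28.6% in the plus library. Defining markers of other cell types were near 0. B cell Cd79a and Ms4a1 were at 0 in the gate of both libraries, and 4 minus and 13 plus gate cells had a value of Cd79a, Lyz2, C1qa, Mlana or Pmel. Summed over each list in the gate, macrophage markers came to 24.7 CPM in minus and 26.5 CPM in plus cells, melanoma markers to 6.75 and 14.2 CPM, and CD4 and regulatory T cell markers to 11.2 and 2.84 CPM, where CPM is corrected counts scaled to 1000000 over the cells of a class. B cell markers came to 72.0 CPM in minus and 62.5 CPM in plus gate cells against 132 and 110 CPM in other cells, dendritic cell markers, mostly the widely expressed Cst3, to 193 and 208 CPM against 182 and 216 CPM, and fibroblast and endothelial markers to 20.2 and 12.3 CPM against 19.5 and 16.1 CPM. Neutrophil markers were not analysed here. Of NK cell markers only Klre1, which CD8 T cells can express, was above 20 CPM, and Klrb1c was 2.25 CPM and 0. No doublet caller was run, and 1 cell barcode occurs in both tumour libraries.

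The markers of exhausted cells were more frequent in the gate. Lag3, the gene of the inhibitory receptor LAG-3, had a value in 88.9% of minus gate cells (80.5 to 94.5) and 82.4% of plus gate cells (77.3 to 86.7), against 30.5% and 41.6% of other CD8 cells. Entpd1, the gene of the ectonucleotidase CD39, had a value in 34.4% of minus gate cells (24.7 to 45.2) and 21.0% of plus gate cells (16.3 to 26.3), against 6.98% and 10.8% of others. Entpd1 transcripts were thus found in a minority of gate cells. In cells with Pdcd1 but no Havcr2, Entpd1 stood at 30.6 CPM in minus and 45.8 CPM in plus. Its gate levels were 94.4 and 60.6 CPM, so the plus library was less far apart in that comparison. The Lag3 and Entpd1 shares given here were not thinned. A count was taken over 6 further genes of surface proteins (Lag3, Entpd1, Tigit, Ctla4, Cd160 and Cd244a). At least 3 were found in 72.2% of minus and 65.1% of plus gate cells. The shares were 52.3% and 46.0% of cells with Pdcd1 but no Havcr2, and 4.54% and 8.82% of cells with neither. After thinning these shares were 48.9% and 51.8%, 38.0% and 37.4%, and 2.41% and 6.53%. The order of the classes stayed, and the plus library then stood higher in the gate.

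Across genes, each library's summed level in the gate was set against all its other CD8 cells as a log2 ratio with 1 CPM added to both levels. A gene counted as measured when both classes of each library had some value of it and 1 of them reached 20 CPM and 5% of cells, and as higher or lower in the gate when the ratio was at least 1 in size, with the same sign, in both libraries. Of 5472 genes, 119 were higher (2.17%), Pdcd1 and Havcr2 themselves among them, and 56 were lower (1.02%). The median ratio over all measured genes was 0.40 in minus and 0.24 in plus, so gate values lean upwards, and relative to that median 39 genes were higher and 86 lower.

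Of 12 measured inhibitory receptors, 6 were higher in the gate and 0 lower, beside the 2.17% and 1.02% of all genes, with medians of 1.42 in minus and 0.96 in plus. Lag3 stood at 791 CPM in minus gate cells against 210 CPM in other cells, and at 718 against 303 CPM in plus (1.91 and 1.24). Tigit, the gene of a receptor for CD155, stood at 654 against 224 CPM and 757 against 375 CPM (1.54 and 1.01). Cd244a, Cd200, Cd200r1 and Lilrb4a, all genes of receptors or ligands with inhibitory functions, made up the other 4. In other cells Cd244a stood at 10.3 CPM in minus and 17.7 CPM in plus, and Cd200r1 at 15.9 and 16.3 CPM. These levels are below the 20 CPM asked of measured genes. Cd244a and Cd200r1 were thus measured through their gate level only, and their ratios rest on low values. Ctla4, which competes with CD28 for its ligands, passed the size in minus (1.63) and not in plus (0.91). Vsir, the gene of VISTA, was level (0.01 and 0.11).

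Of 12 measured transcription factors linked to exhaustion, 0 passed the size in both libraries. Their ratios had medians of 1.01 in minus and 0.53 in plus, where all measured genes had 0.40 and 0.24. They were above 0 in both libraries for 9 of the 12, in a comparison where gate values lean upwards. Tox, which encodes a factor needed for the exhausted state, stood at 319 against 117 CPM in minus and 315 against 177 CPM in plus (1.44 and 0.83). Nr4a2, a nuclear receptor gene induced by antigen receptor signalling, stood at 1493 against 622 CPM and 1572 against 941 CPM (1.26 and 0.74). Its relative Nr4a1 was level (0.05 and -0.11).

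Of the listed genes of progenitor and naive cells, 11 of 12 measured were lower, beside 1.02% of all genes, with medians of -2.39 in minus and -1.94 in plus. Klf2, a factor that keeps T cells in circulation, stood at 126 CPM in minus gate cells against 1630 CPM in other cells, and at 127 against 1250 CPM in plus (-3.68 and -3.29). Lef1 stood at 20.2 against 194 CPM and 18.9 against 124 CPM (-3.20 and -2.65). Tcf7, the gene of the progenitor factor TCF-1, was found in 12.2% of minus gate cells (6.26 to 20.8) and 6.25% of plus gate cells (3.68 to 9.82), against 31.0% and 21.1% of other cells. Il7r, the gene of the interleukin-7 receptor that naive and memory cells depend on, stood at 47.2 against 163 CPM and 33.1 against 122 CPM (-1.77 and -1.85). Foxp1, which keeps T cells quiescent, was the member of the list that missed the size (-1.02 and -0.67). Xcl1, a chemokine gene outside this list and also a marker of progenitor cells, was not lower. It stood at 537 CPM in minus gate cells against 502 CPM in other cells, and at 714 against 654 CPM in plus. Cxcr5, a chemokine receptor gene of progenitor cells, was at 0 in both gates. In other cells Cxcr5 was also low, at 3.25 CPM in minus and 3.06 CPM in plus, and it was not among the measured genes.

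The genes furthest below other cells by the lesser of the libraries' ratios included Dapl1, Klf2, Igfbp4, Id3, Il6ra, Klf3, Lef1, Rflnb, Itgb7, Pde2a and Nsg2. Id3, a factor gene of progenitor and memory cells, had a value in 4.44% (1.22 to 10.99) and 1.10% of gate cells (0.228 to 3.19), against 27.6% and 17.1%. Itgb7, an integrin gene, stood at 11.2 against 126 CPM in minus and 23.7 against 127 CPM in plus (-3.37 and -2.38). Several of these rest on few counts in the gate. Igfbp4 had 1 corrected count in minus cells and 6 in plus cells, Il6ra 2 and 3, and Pde2a 3 and 3. In both gates Dapl1, Id3, Klf3, Rflnb and Nsg2 also stood below the 20 CPM asked of measured genes. Rflnb was at 8.99 CPM in minus and 0.946 CPM in plus gate cells, and Nsg2 at 11.2 and 1.89 CPM. All these low genes were measured through their level in other cells only.

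At the other end stood Ccl3, Spp1, Prf1, Fcrl6, Myo10, Serpine2, Adgrg1, Prr5l, Tubb6, Slc37a2, Adam8 and Srgap3. In other cells of both libraries Fcrl6, Myo10, Adgrg1, Prr5l, Slc37a2, Adam8 and Srgap3 stood below the CPM floor for measured genes. Their levels there ran from 1.99 CPM in minus and 5.47 CPM in plus for Fcrl6 to 10.8 and 17.4 CPM for Prr5l. These genes were measured through their gate level only, so their ratios rest on low values. Ccl3, the chemokine MIP-1 alpha (chr11:83647844-83649355, minus strand, mm10), stood at 906 CPM in minus gate cells against 89.2 CPM in other cells, and at 1502 against 267 CPM in plus (3.33 and 2.49). Spp1, the gene of the secreted protein osteopontin (chr5:104435118-104441050), stood at 1358 against 156 CPM and 798 against 175 CPM (3.11 and 2.19). Prf1, the pore-forming protein perforin (chr10:61297833-61304680), stood at 468 against 70.4 CPM and 465 against 120 CPM (2.71 and 1.94). Perforin was present in 55.6% of minus and 53.7% of plus gate cells. Adgrg1, the adhesion receptor GPR56 of cytotoxic cells, stood at 45.0 against 7.58 CPM and 46.4 against 11.7 CPM (2.42 and 1.90). Serpine2, a protease inhibitor gene, stood at 89.9 against 22.9 CPM and 127 against 30.3 CPM (1.93 and 2.03). Adam8, a membrane protease gene, stood at 38.2 CPM in minus and 53.0 CPM in plus gate cells (2.29 and 1.57).

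**Figure D2:**
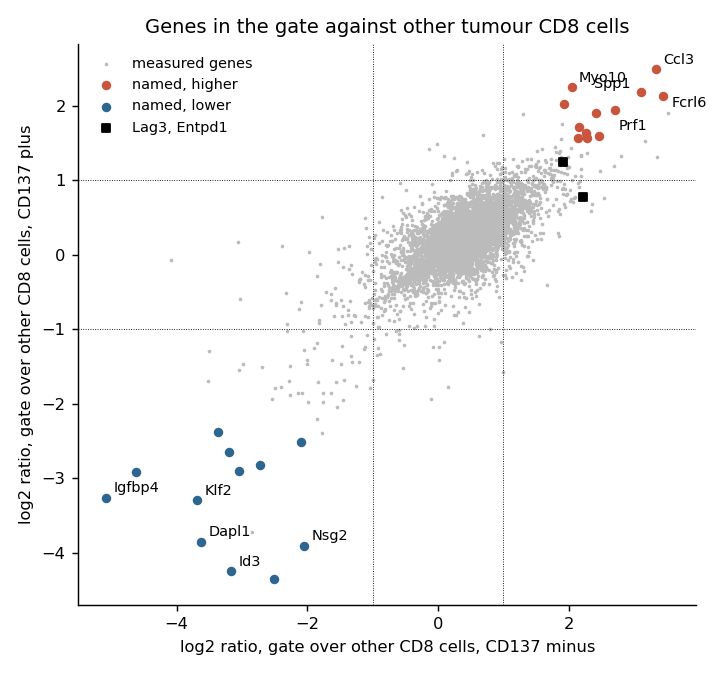
Log2 ratio of gate to other tumour CD8 cells in the CD137 minus library (x axis) against the same in the CD137 plus library (y axis), with 1 CPM added; each point is 1 measured gene, dashed lines mark a ratio of 1 in size, and genes of the rule are left out. Ccl3 and Spp1 lie at the upper right (3.33 and 2.49, 3.11 and 2.19) and progenitor genes such as Klf2 at the lower left (-3.68 and -3.29).

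Of 12 measured cytotoxic genes, 1 was higher (Prf1) and 2 were lower, beside 2.17% and 1.02% of all genes. Their medians of 0.46 and 0.33 were near those of all genes. The granzymes did not share a direction. Gzmb, the main caspase-cleaving granzyme, stood at 153 against 122 CPM in minus and 331 against 251 CPM in plus (0.32 and 0.40). Gzma stood at 24.7 against 212 CPM and 79.5 against 233 CPM (-3.05 and -1.54). Gzmm was lower as well (-2.07 and -1.85). Gzmk stood at 207 against 89.5 CPM in minus (1.20) and at 154 against 182 CPM in plus (-0.24). Of 10 measured cytokine and chemokine genes, 5 were higher and 0 lower, beside the same 2.17% and 1.02%, with medians of 1.34 and 0.91. Ccl4, MIP-1 beta, stood at 724 against 282 CPM and 1562 against 642 CPM (1.36 and 1.28). Csf1, the macrophage growth factor, stood at 112 against 11.6 CPM in minus and 45.4 against 15.1 CPM in plus (3.18 and 1.53). In other cells of both libraries Csf1 was below the 20 CPM floor. It was measured through its gate level only, so its ratios rest on low values. Ifng, the gene of interferon gamma, stood at 472 against 181 CPM and 578 against 354 CPM (1.38 and 0.71). Ccl5 was near level (0.17 and -0.22), at 4726 CPM in minus and 5998 CPM in plus gate cells.

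These secreted products were not spread evenly over the gate. The 10% of gate cells with the most Ccl3 held 79.2% of its corrected counts in minus and 69.6% in plus, and for Spp1 the shares were 79.3% and 89.2%. Ccl3 had a value in 43.3% of minus and 50.4% of plus gate cells. Ccl4 was found in 66.7% of minus gate cells with Ccl3 and 17.6% of those without, and in 66.4% and 29.6% in plus. Perforin was found in 76.9% of minus gate cells with Spp1 and 39.2% of those without, and in 69.4% and 48.0% in plus. With cells thinned to equal totals, Ccl4 was found in 51.4% (34.0 to 68.6) and 14.5% (6.50 to 26.7) of minus gate cells with and without Ccl3, and in 66.9% and 26.1% in plus. Perforin with and without Spp1 was then at 58.3% (40.8 to 74.5) and 35.2% (22.7 to 49.4) in minus, with overlapping intervals, and at 66.7% (53.99 to 77.8) and 43.2% (36.3 to 50.3) in plus.

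The remaining lists had fewer members past the size, to be read beside 2.17% of all genes higher and 1.02% lower. Of 8 measured ectonucleotidase and tissue residency genes, 2 were higher and 1 lower, with medians of 0.93 and 0.70. Cxcr6, a chemokine receptor gene that marks tissue T cells, stood at 708 against 196 CPM and 700 against 272 CPM (1.85 and 1.36), and Itgav, an integrin gene, at 355 CPM in minus and 203 CPM in plus gate cells (2.19 and 1.05). Cd69, an early activation gene that also holds cells in tissue, was the lower one (-1.89 and -1.26). Entpd1 passed the size in minus only (2.22 and 0.78). Of 8 measured costimulatory genes, 1 was higher, Tnfrsf9 itself (1.88 and 1.32), with list medians of 1.16 and 0.58. Of 15 genes that dampen signalling, Ubash3b, a phosphatase gene, was higher (1.64 and 1.14) and Socs3, an inhibitor of cytokine signalling, lower (-1.12 and -1.24). Of 12 glycolysis genes only the glucose transporter gene Slc2a3 was higher (1.34 and 1.15). Of 9 dissociation stress genes, 2 were lower, the early response genes Fos (-2.05 and -1.28) and Jun (-1.34 and -1.35), with list medians of -1.02 and -0.09. Fos stood at 218 against 909 CPM in minus and 288 against 699.98 CPM in plus. None of 15 NF-kB and TRAF genes, 10 BCL2 family genes, 12 genes of the T cell receptor complex and CD8, 7 interferon-induced genes and 9 cell cycle genes passed the size in both libraries.

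The nearest class was the CD8 cells with Pdcd1 and no Havcr2, 392 in minus (31.3%) and 1195 in plus (43.5%). Against these cells 12 of 5545 measured genes were higher in the gate (0.216%) and 18 lower (0.325%), and the median over all genes was 0.16 in minus and 0.12 in plus. All 12 higher and 16 of the 18 lower genes were among those that passed against all other cells, which include these cells. The higher genes were Ccl3, Myo10, Fcrl6, Spp1, Prf1, Adgrg1, Slc37a2, Prr5l, Tubb6, Adam8, Srgap3 and the gene model Gm36723. Of these, Myo10, Fcrl6, Adgrg1 and Slc37a2 stood below the CPM floor for measured genes in the cells with Pdcd1 alone of both libraries. With 10 CPM added to both levels, 7 genes were higher and 9 lower. Ccl3 stood at 153 CPM in minus and 349 CPM in plus cells with Pdcd1 alone (ratios 2.55 and 2.10). Spp1 stood there at 321 and 253 CPM (2.08 and 1.65), and Prf1 at 127 and 149 CPM (1.87 and 1.63). Inhibitory receptors were less far apart: 0 of 12 passed the size, with medians of 0.40 in both libraries, and Lag3 stood at 465 CPM in minus and 461 CPM in plus cells with Pdcd1 alone. Of 11 measured progenitor genes, 8 were lower in the gate, with medians of -1.79 and -1.16. Dapl1, a gene of progenitor and naive T cells, had the lowest pair of ratios (-2.60 and -3.40), and Slamf6, Il7r, Ccr7 and Lef1 were among the 18.

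**Figure D3:**
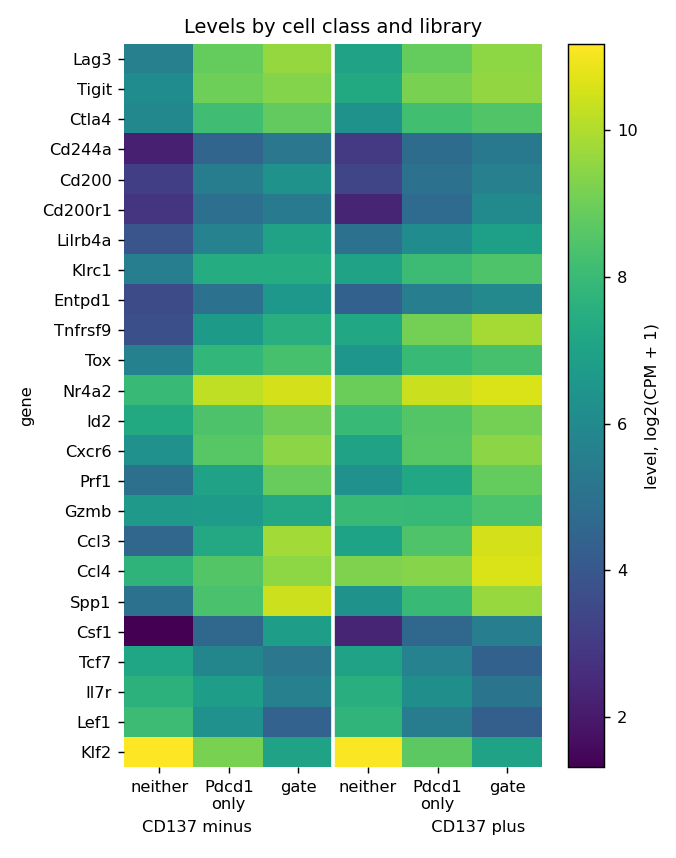
Heat map of level, as log2 of CPM plus 1 (colour), for 24 genes (y axis) in 3 classes of tumour CD8 cells of each library (x axis: neither gene, Pdcd1 only, gate). In both libraries Lag3 is lowest with neither gene and highest in the gate (791 and 718 CPM), and Klf2 is lowest in the gate (126 and 127 CPM).

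The label of the fractions was checked on the targeted gene. Tnfrsf9 (chr4:150914562-150946102, plus strand, mm10), which encodes CD137, stood at 180 CPM in the gate of the library labelled CD137 minus and at 913 CPM in that labelled plus (-2.34). It had a value in 52.2% of minus gate cells (41.4 to 62.9) and 82.7% of plus gate cells (77.7 to 87.0), and after thinning in 33.3% and 79.8%. The gene was thus lower and not absent in minus gate cells. In cells with neither receptor it was found in 3.12% of minus and 20.8% of plus cells, and in spleen CD8 cells in 0.859% and 4.05%. The minus gate share was above these minus shares, in classes where plus cells also had less of it than in the gate. The sources used here do not name the removed exons. Whether reads near the 5′ end come from a part of the gene that Cre leaves in place was not tested. No other source of the transcripts in minus gate cells was tested either. A transcript value is no measure of the protein.

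Inside the gate the CD137 minus library was set against the plus library with the same ratio and a size of 0.5. Of 6243 measured genes, 974 were higher in minus (15.6%) and 700 lower (11.2%), around a median of 0.03 with an SD over genes of 0.54. Ratios of that size are thus common in sums of 444753 and 1056677 corrected counts. Among 1650 genes that reached 100 CPM and 20% of the cells of 1 library's gate, 130 were higher (7.88%) and 74 lower (4.48%). There is no replicate check on any of them.

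Several genes of exhaustion were near level between the fractions, while Entpd1 and some receptors and factors named below passed the size. Pdcd1 stood at 1032 CPM in minus and 1002 CPM in plus gate cells, values which the rule itself touches. Lag3 stood at 791 and 718 CPM (0.14), Tox at 319 and 315 CPM (0.02), Cxcr6 at 708 and 700 CPM (0.02) and Prf1 at 468 and 465 CPM (0.01). Of 12 measured inhibitory receptors, 1 was higher in minus and 2 lower, shares near those of all genes, with a median of -0.05. Cd200 was the higher one (0.76), and Cd200r1 (-0.64) and Klrc1, the gene of NKG2A (-1.05), the lower ones. Klrc1 has near-identical relatives between which reads may be split. Of 13 exhaustion-linked factors, with a median of 0.15, 2 were higher and 0 lower, beside 15.6% and 11.2% of all genes. The share of higher factors was thus near that of all genes. The higher ones were Bach2, a factor of progenitor and memory cells, and Eomes, a T-box factor of effector and exhausted cells. Bach2 stood at 31.5 against 8.52 CPM (1.77), with the plus level below the 20 CPM floor, and Eomes at 51.7 against 32.2 CPM (0.67).

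The same ratio was taken in the other classes of CD8 cells. In cells with Pdcd1 alone the inhibitory receptors had a median of -0.06 and the exhaustion-linked factors -0.08, close to the gate values of -0.05 and 0.15. In cells with neither gene the medians were -0.74 and -0.69, where all genes had -0.13, and 5 of 9 measured receptors and 7 of 11 factors were lower in minus, beside 8.77% of 4776 measured genes lower and 1.74% higher. Lag3 stood near level in the gate (0.14) and with Pdcd1 alone (0.01), and lower in minus cells with neither gene (-1.40). Tigit followed the same order (-0.21, -0.19 and -1.20). The medians of these lists thus lay furthest from 0 in the cells with neither gene, which does not hold for each member. Bach2 was furthest from 0 in the gate (1.77, against 0.52 with Pdcd1 alone and 0.41 with neither). Its gate levels were low, at 31.5 CPM in minus and 8.52 CPM in plus, so this ratio rests on few corrected counts. Of the measured cytokine and chemokine genes, 7 of 7 were lower in minus cells with neither gene (median -1.31), beside that 8.77%. With Pdcd1 alone 5 of 10 were lower (median -0.30), beside 4.83% of 5675 genes lower and 4.39% higher. In the gate 2 of 10 were lower and 3 higher (median -0.32), near the 11.2% and 15.6% of all genes there. Whether the classes differ in their ratios was not tested, since each rests on 1 library per group.

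Tnfrsf9 and several effector genes were lower in minus in each of these 3 classes. Tnfrsf9 had ratios of -2.34 in the gate, -2.43 with Pdcd1 alone and -3.49 with neither gene. Gzmb had -1.11, -1.19 and -1.34, from 153 CPM in minus and 331 CPM in plus gate cells. It was found in 24.4% of minus and 38.6% of plus gate cells. Ccl4 had -1.11, -0.83 and -1.55, from 724 and 1562 CPM in the gate. Ccl3 had -0.73, -1.18 and -2.47. Ifng had -0.61 with Pdcd1 alone and -1.31 with neither gene, and did not pass the size in the gate (-0.29). Bcl2a1d, a survival gene of the BCL2 family with near-identical copies, had -1.01, -0.94 and -1.43. Gapdh, a glycolysis gene with many processed copies in the genome, had -1.11, -0.96 and -1.09, and Eno1 had -0.58, -0.69 and -0.79.

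Of 9 dissociation stress genes, 3 were lower in the minus gate (median -0.34, against 0.10 with Pdcd1 alone), and so were 4 of 10 cell cycle genes outside the rule (median -0.26), beside the 11.2% of all genes. Their part in the other differences was not tested.

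A few genes of the gate stood higher in minus. Spp1 stood at 1358 CPM in minus and 798 CPM in plus (0.77). It was found in 43.3% of minus and 26.5% of plus gate cells. With the stricter gate of at least 2 corrected counts of Pdcd1 and Havcr2 its ratio turned to -0.31, and after thinning it was 0.19. Csf1 stood at 112 and 45.4 CPM (1.29), against 0.01 in cells with Pdcd1 alone. In cells with neither gene it stood below the 20 CPM floor, at 1.49 and 4.09 CPM. Entpd1 stood at 94.4 and 60.6 CPM (0.63), from 42 and 64 corrected counts, against -0.57 with Pdcd1 alone. With neither gene it too was below the floor, at 10.7 and 19.7 CPM. Itgav stood at 355 and 203 CPM (0.80), and Tnfaip3, the gene of the NF-kB inhibitor A20, at 542 and 313 CPM (0.79). Tcf7 stood at 36.0 and 19.9 CPM (0.82), from 16 and 21 corrected counts, and its ratio turned to -0.23 after thinning.

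**Figure D4:**
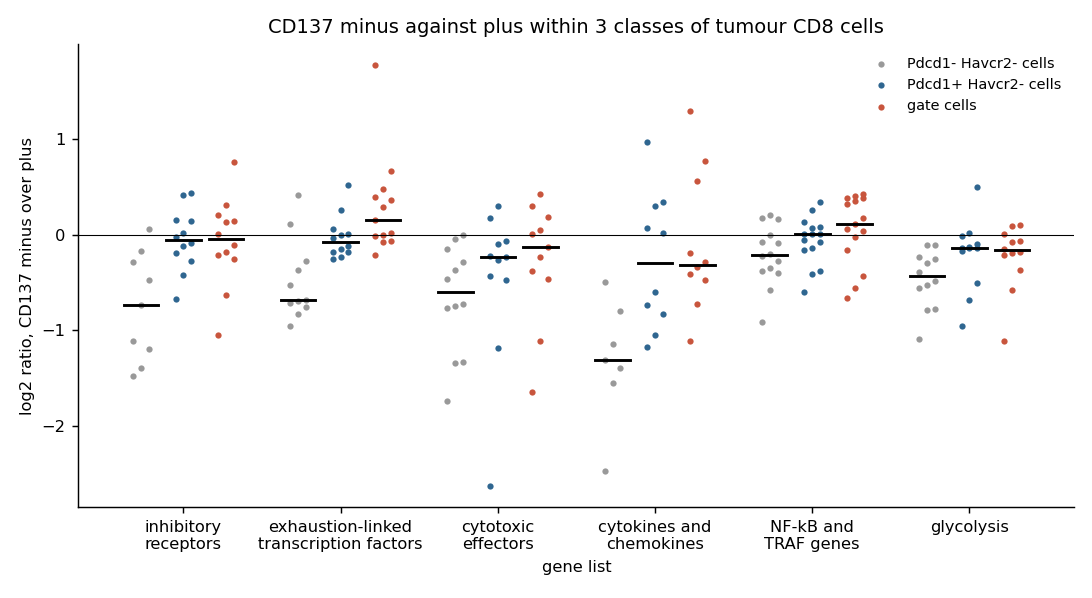
Log2 ratio of CD137 minus to plus (y axis, 1 CPM added) for the measured genes of 6 lists (x axis) in 3 classes of tumour CD8 cells; each point is 1 gene and black bars are medians. The inhibitory receptors have medians of -0.05 in the gate, -0.06 with Pdcd1 alone and -0.74 with neither gene.

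By size of ratio alone the leading genes of this contrast were rarely read. Higher in minus were Zgrf1, Erc1, Frmd4b, Ago1, Ift140, Dcaf6, Fam185a, Zfpm1, Bcr, Elp4, Smim19 and Ripor2. Zgrf1, a helicase gene, stood on 16 corrected counts in minus and 4 in plus gate cells. Ripor2, a regulator of the small GTPase RhoA, stood on 24 and 13 corrected counts, at 54.0 and 12.3 CPM (2.05). Bcr stood at 40.5 and 8.52 CPM (2.12) and Smim19 at 42.7 and 9.46 CPM (2.06). Lower in minus were Hspa1a, Gpatch4, Zfp868, Nop2, Btd, Cyp20a1, Rfc3, Insl6, Naa10, Plbd2, Pola1 and Tnfrsf9. Of these Gpatch4, Zfp868, Nop2, Btd and Cyp20a1 had 1 corrected count each in the minus gate. Naa10, a gene of an N-terminal acetyltransferase, stood at 8.99 and 54.9 CPM (-2.48). Hspa1a, a heat shock gene that also responds to tissue dissociation, had 3 corrected counts in minus and 129 in plus gate cells, the latter in 24 cells. Tnfrsf9, on 80 and 965 corrected counts, was the one of the 12 with more than 4 in the minus gate.

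Antigen receptor V segments differed between the gates of the libraries. Receptors were not sequenced on their own, clones were not called, and V segments are families with near-identical copies, so a segment value is less certain than that of a single gene. In plus, Trav12-3 (chr14:53621657-53622245, plus strand, mm10) was found in 48 of 272 gate cells (17.6%, 13.3 to 22.7), in 7.03% of cells with Pdcd1 alone and in 2.29% of cells with neither gene. In the minus gate it was found in 0 of 90 cells, which allows a share of up to 3.33% with the limit again at 3 cells of the total. Of the 48 cells, 42 also had Trbv13-2 (87.5%, 74.8 to 95.3) and 14 had Trbv12-2 (29.2%, 17.0 to 44.1). Values of 2 or more beta segments were found in 43.3% of minus and 35.7% of plus gate cells. Segments found together thus need not form 1 receptor. In minus, Trav14-1 (chr14:53554022-53554558, plus strand) was found in 22 of 90 gate cells (24.4%, 16.0 to 34.6), in 10.2% of cells with Pdcd1 alone and in 3.69% of cells with neither gene. In the plus gate the share was 3.31%. Of the 22 cells, 19 also had Trbv4 (86.4%, 65.1 to 97.1), a pair that occurred in 68 CD8 cells of the minus tumour library and 1 of the plus tumour library.

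The gate held 28.6% of the 168 plus CD8 cells with Trav12-3 (21.9 to 36.0) and 38.9% of the 108 that also had Trbv13-2, against 8.69% of those without Trav12-3. It held 21.4% of the 103 minus CD8 cells with Trav14-1 (13.9 to 30.5) and 27.9% of the 68 that also had Trbv4, against 5.92% of those without Trav14-1. A chosen segment's share in the gate is a description, since the segments were picked for being the most frequent there. With the cells of both segments left out, the gate held 6.03% of minus (4.72 to 7.59) and 8.65% of plus CD8 cells (7.58 to 9.83). These counting intervals overlapped at their ends, unlike those with all cells.

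Gate cells with these segments also differed from the other gate cells of their library in secreted products. In minus, Spp1 stood at 2808 CPM in gate cells with Trav14-1 and at 861 CPM in the rest (1.70), and it was found in 81.8% and 30.9% of them. In plus, Spp1 stood at 1992 CPM with Trav12-3 and 536 CPM without (1.89), in 45.8% and 22.3% of cells. Ccl3 stood at 554 CPM with Trav14-1 and 1027 CPM without in minus (-0.89), although it was found in 50% and 41.2% of these cells, and at 2946 CPM with Trav12-3 and 1186 CPM without in plus (1.31). Ccl4 stood at 211 and 900 CPM in minus (-2.09) and at 1792 and 1512 CPM in plus (0.24). Lag3 stood at 792 CPM with and 791 CPM without Trav14-1 in minus, and at 875 CPM with and 684 CPM without Trav12-3 in plus (0.35). The cells of a segment may be the offspring of few cells and of few mice, so they are not independent, and these values rest on 22 and 48 cells.

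**Figure D5:**
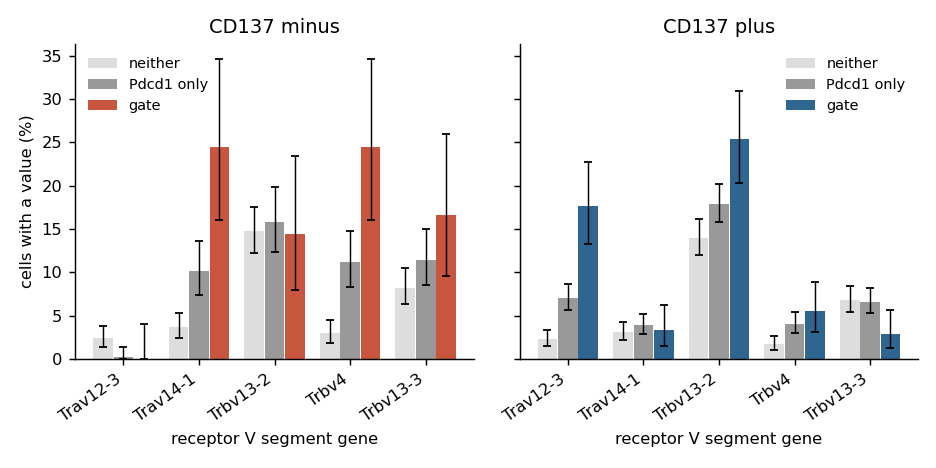
Share of cells (y axis, percent, exact 95% intervals for counting error) with the leading V segments by class of tumour CD8 cells (neither gene, Pdcd1 only, gate) in each library, 1 panel per library. Trav12-3 stands at 17.6% of the plus gate and 0 of 90 cells of the minus gate, and Trav14-1 at 24.4% of the minus gate and 3.31% of the plus gate.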

How the data were processed

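Single CD8 T cells of 4 pooled libraries were measured with a 5′ 10x Genomics kit. The deposited table holds natural log values per cell and gene; undoing the log and subtracting 1 gave whole numbers for every entry within a relative tolerance of 1e-12; Cell Ranger 3.0.2, Seurat 3.0 and mm10 are named per the submitters' processing notes. The whole numbers behave as corrected counts, with narrow totals, so raw depth is unknown and thinning to 2949 evens only corrected totals. They were summed over the cells of a class and scaled to 1000000 (CPM) with pandas 2.3.3 and numpy 2.4.6 in Python 3.11.15, intervals came from scipy 1.17.1 and figures from matplotlib 3.10.9. Genes needed at least 20 CPM and a value in 5% of cells in 1 of the 2 classes and a value in both. Ratios added 1 CPM. No model was fitted. Named genes were the 12 furthest to each side, leaving out receptor segments, mitochondrial, ribosomal and sex-linked genes and gene models, besides listed genes; 1 of them is not reported here. Members and lists were chosen with earlier results of these data known. The gene loci are from GENCODE vM21, in which 12631 of 12763 symbols matched. Across the 4 libraries 19 barcodes occur in more than 1. Alternatives covered the gate, thinning, filter, added constant and denominator.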

Additional observations from a re-analysis of the deposited data

Results flagged for a closer look

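Entpd1 stood higher in CD137 minus than plus cells inside the gate (log2 ratio 0.63) and lower in minus among all other tumour CD8 cells (-0.81). The gate value rests on 42 and 64 corrected counts. Ccl1, a chemokine gene, likewise had 0.56 inside the gate and -0.63 among other cells, and 51 of its corrected counts in the minus gate lay in 1 cell. Trbv13-3 stood higher in the gate than in other cells in minus (1.00) and lower in plus (-1.57), found in 16.7% of minus and 2.94% of plus gate cells. Each of these was marked because its direction was opposite in the groups compared. With 1 library per group the differences were not tested.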

How the results depend on the processing

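No paired analysis was possible because each group is 1 library and the labels carry no replicate numbers. Thinning the cells gave gate shares of 4.93% in minus and 8.06% in plus, and 1676 genes higher and 1316 lower in minus of 6336 inside the gate. At least 2 counts of each gate gene gave 2.48% and 2.00%, 266 genes higher in the gate than in other cells, 98 higher and 49 lower than with Pdcd1 alone, and 1765 higher and 1745 lower in minus around a median of 0.12. With 10 CPM added, 47 genes were higher in the gate, and 7 higher and 9 lower than with Pdcd1 alone. Without the filter, 241 were higher and 107 lower in the gate, 69 and 43 against Pdcd1 alone, and 2157 and 1639 in minus against plus. At least 100 CPM in 20% of cells gave 130 and 74. Relative to the median gene, 39 were higher and 86 lower in the gate. With CD8 cells that had Pdcd1 as denominator the shares were 17.5% and 17.8%. With the cells of the leading alpha segments left out, the shares were 6.03% and 8.65%. Of the single genes and lists, the minus to plus ratio of Spp1 turned to -0.31 with at least 2 counts of each gate gene and that of Tcf7 to -0.23 after thinning, and the cause was not tested. Of their other values under an alternative, 1306 moved little and 129 moved further with the same sign or without a call. The stricter filter, the segments and the median gene were added after seeing the data. Every value of the minus gate rests on 90 cells of 1 library.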
